A study of Mus musculus with 8 samples.

Results

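The genes described here are 8 transcripts that mark the heat-producing program of brown fat, namely Ucp1, Dio2, Cox7a1, Cox8b, Otop1, Kcnk3, Pank1 and Slc27a2, measured in the skin of control mouse embryos and of embryos labelled Pparg null. They were chosen by symbol from the rows of the array table that carry exactly 1 gene symbol. All 8 were found, each with 1 row, among 19938 such genes. Transcripts of full-thickness skin at E17.5 were measured on 8 single-colour Affymetrix whole-transcript arrays, of which 4 carried RNA of embryos labelled wildtype for PPARgamma, called control, and 4 carried RNA of embryos labelled PPARgamma null or PpargΔ/Δ, called labelled-null. Both groups were of a mixed C57BL6/SV129 background. The sources used here do not give the deleted part of the gene, the way it was deleted, the litters or the sexes. The series text calls the RNAs individual. Each p-value sets a group difference against the spread within these groups of 4 and 4 RNAs, which limma draws towards a value shared over all genes.

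Brown adipocytes burn fatty acids in their mitochondria and release the energy as heat, because UCP1 lets protons return across the inner membrane without making ATP. PPARgamma, the nuclear receptor encoded by Pparg, pairs with RXR on DNA and is needed for brown as well as white adipocytes to form. In the mouse embryo brown fat grows beneath the skin of the upper back late in gestation, while the dermal fat layer consists of white adipocytes. A thin sheet of striated muscle, the panniculus carnosus, lies under that layer. Striated muscle shares part of the brown fat program: Cox7a1 and Cox8b are subunit isoforms of heart, skeletal muscle and brown fat alike.

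The 250 bases before the annotated start of 4 genes are printed because these genes carry the comparison: Ucp1 is the defining brown fat gene, Dio2 holds a cAMP motif, and Cox7a1 and Cox8b are the muscle isoforms. Sequences and coordinates are those of RefSeq on GRCm38.p6, read 5′ to 3′ on the strand of the gene, and capitals mark the motif matches given below.
Ucp1, chr8:83290098-83290347, plus strand: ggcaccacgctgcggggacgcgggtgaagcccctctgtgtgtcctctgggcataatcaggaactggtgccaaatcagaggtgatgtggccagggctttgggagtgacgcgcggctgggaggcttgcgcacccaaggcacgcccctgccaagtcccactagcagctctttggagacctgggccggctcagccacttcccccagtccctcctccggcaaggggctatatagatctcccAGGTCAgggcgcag
Dio2, chr12:90739039-90739288, minus strand: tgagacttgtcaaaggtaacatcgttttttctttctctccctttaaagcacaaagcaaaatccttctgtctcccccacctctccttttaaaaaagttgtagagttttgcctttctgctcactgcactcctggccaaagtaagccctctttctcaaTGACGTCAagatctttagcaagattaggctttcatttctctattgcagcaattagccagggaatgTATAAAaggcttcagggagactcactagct
Cox7a1, chr7:30183921-30184170, plus strand: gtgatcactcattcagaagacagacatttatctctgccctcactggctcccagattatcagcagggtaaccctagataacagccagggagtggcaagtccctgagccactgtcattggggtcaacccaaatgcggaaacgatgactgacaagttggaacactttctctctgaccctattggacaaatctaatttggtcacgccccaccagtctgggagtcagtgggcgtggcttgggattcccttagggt
Cox8b, chr7:140900447-140900696, minus strand: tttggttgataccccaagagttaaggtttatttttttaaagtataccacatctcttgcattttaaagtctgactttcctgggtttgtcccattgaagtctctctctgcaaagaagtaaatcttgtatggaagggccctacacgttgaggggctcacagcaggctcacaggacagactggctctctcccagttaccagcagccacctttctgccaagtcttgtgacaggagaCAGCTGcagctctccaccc

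Promoter entries were found for 7 of the 8 genes, all but Kcnk3, and 6 motifs were searched on both strands in these windows. The nuclear receptor core AGGTCA was found in Ucp1, 14 to 9 bases before its start, and in Slc27a2, 220 to 215 bases before its start. That core was present in 14% of all 32851 promoter windows of this length. DR1, the repeat AGGTCANAGGTCA to which PPARgamma with RXR can bind and which contains the core, was found in 0 of the 7 genes and in 0.0335% of all windows. The ERR element TCAAGGTCA, which contains the core too, was found in 0 of the 7 genes and in 0.387% of all windows. The cAMP response element TGACGTCA was found in Dio2, 95 to 88 bases before its start, against 1.55% of all windows. The E-box CAGCTG was found in Cox8b (13% of all windows), and TATAAA in Dio2 and Pank1 (12.4% of all windows). Pank1 has another annotated start, and the window before it (chr19:34877918-34878167) held 0 matches to the 6 motifs. A match describes letters only, and distant enhancers lie outside these windows.

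The Pparg row (10540897) read 8.79, 8.88, 9.04 and 9.06 on the control arrays and 9.14, 9.19, 9.19 and 8.98 on the labelled-null arrays (log2). The groups overlapped, and the labelled-null values were not the lower ones (difference 0.18, 95% confidence interval 0.01 to 0.36). Whether this row covers the deleted part is not known, so it does not check the labels, and all directions are those of the labelled-null group. Markers of the labelled tissue were bright: all 10 measured keratinocyte markers and 8 of 10 dermal fibroblast markers lay above the 90th percentile of every array. Array medians lay between 6.93 and 6.96, pairs of arrays correlated at r = 0.989 to 0.994 across all 35556 rows, and precision is limited by the number of arrays. On the first principal component, labelled-null array 4 (score -22.8) and control array 1 (-9.62) stood apart from the other 6 arrays, which ran from -0.953 to 8.96.

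No difference between control and labelled-null skin was detected for any of the 8 brown fat markers. The body site of the skin is not given, so whether the samples held brown fat at all is not known. The values bound the change of what these rows read in the skin as sampled. For the dim Ucp1 and Slc27a2 rows, whether they hold any transcript of their genes was not determined. In limma, 0 of 8 passed an adjusted p of 0.05 over all genes, 0 of 8 had an unadjusted p under 0.05, and the values of the 2 groups overlapped for all 8. Over all 19938 genes, 16 or 0.0802% passed the adjusted threshold (15 lower, 1 higher), 3.57% had an unadjusted p under 0.05 and 2.32% had groups that did not overlap. The differences ran from -0.07 for Cox7a1 to 0.09 for Cox8b on the log2 scale, 5 below and 3 above 0, with a median of -0.02 against 0.001 over all genes. Each 95% confidence interval included 0. The widest bounds were -0.38, a fall of 1.30-fold, for Cox7a1, and 0.35, a rise of 1.28-fold, for Cox8b. Larger differences lie outside these intervals, which are not adjusted for the number of genes.

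**Figure D1:**
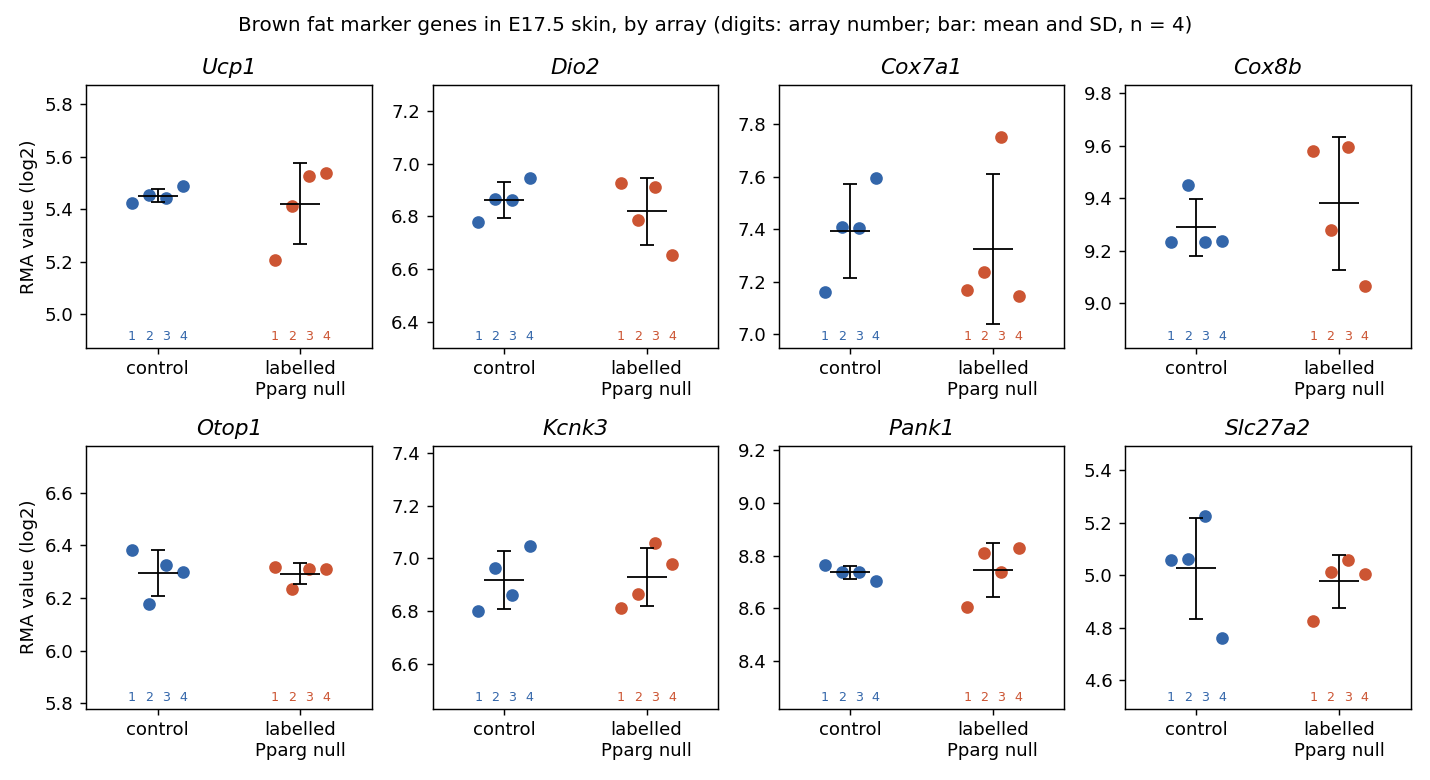
Each panel plots the RMA value (log2) of 1 gene on the 4 control arrays (blue) and the 4 arrays labelled Pparg null (orange), with digits for the array number and bars for the mean and SD. All panels span 1 log2 unit, the groups overlap in all 8, and labelled-null array 3 is high for Cox7a1.

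Ucp1, the proton carrier that uncouples respiration, was dim on all arrays. It read 5.42, 5.45, 5.44 and 5.49 on the control arrays and 5.21, 5.41, 5.53 and 5.54 on the labelled-null arrays (log2). Labelled-null array 1 held the lowest value and arrays 3 and 4 of that group the highest, so the control values lay inside the range of the other group. The means were 5.45 ± 0.03 and 5.42 ± 0.15 (SD, n = 4 each), a difference of -0.03 (SE 0.08; 95% confidence interval -0.20 to 0.14; limma adjusted p = 0.99996). The row lay between percentiles 23.4 and 28.25 of all rows on the 8 arrays, below percentile 30 on each. No detection call was used here, so whether a row this dim holds any Ucp1 transcript was not determined, and its difference bounds the change only of what the row reads.

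Dio2 encodes the deiodinase that turns thyroxine into active thyroid hormone inside brown adipocytes. It read 6.78, 6.87, 6.86 and 6.95 on the control arrays and 6.93, 6.79, 6.91 and 6.65 on the labelled-null arrays (log2). Labelled-null array 4 was the lowest of all, and the other 3 lay within the control range. The difference was -0.04 (SE 0.07; 95% confidence interval -0.20 to 0.11; limma adjusted p = 0.99996), and the row lay between percentiles 45.6 and 50.2. Of the other deiodinases, the liver and kidney enzyme Dio1 differed by 0.15 and the inactivating enzyme Dio3 by -0.15, neither past the threshold. Both rows were dim, between percentiles 13.96 and 17.11 for Dio1 and between 20.8 and 26.79 for Dio3. Whether these 2 rows hold any transcript of their genes was not determined.

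Cox7a1 and Cox8b, the muscle and brown fat isoforms of subunits of cytochrome c oxidase, varied most among the 8 genes. Cox7a1 read 7.16, 7.41, 7.40 and 7.60 on the control arrays and 7.17, 7.24, 7.75 and 7.15 on the labelled-null arrays (log2). Labelled-null array 3 was the highest of all 8, and the other 3 arrays of its group lay with control array 1 below the remaining controls. The means were 7.39 ± 0.18 and 7.33 ± 0.29 (SD, n = 4 each), and the difference of -0.07 had an SE of 0.14 (limma adjusted p = 0.99996). Without labelled-null array 3 the difference was -0.21.

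Cox8b read 9.23, 9.45, 9.23 and 9.24 on the control arrays and 9.58, 9.28, 9.60 and 9.07 on the labelled-null arrays (log2). Labelled-null arrays 1 and 3 lay above all controls and array 4 below all of them. The means were 9.29 ± 0.11 and 9.38 ± 0.25 (SD, n = 4 each), and the difference of 0.09 had an SE of 0.12 (limma adjusted p = 0.99996). Leaving out labelled-null array 3 gave 0.02, and leaving out array 4 of that group gave 0.20. The spread within groups, pooled over both, was 0.24 for Cox7a1 and 0.20 for Cox8b, above that of 95.3% and 90.5% of all genes.

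Otop1, a proton channel expressed in brown fat, had the smallest spread of the 8. It read 6.38, 6.18, 6.33 and 6.30 on the control arrays and 6.32, 6.23, 6.31 and 6.31 on the labelled-null arrays (log2). The difference was -0.004 (SE 0.06; limma adjusted p = 0.99996), with all values of the labelled-null group inside the control range. The Otop1 row lay between percentiles 38.5 and 41.3 of all rows, below the median of every array. Kcnk3, the acid-sensitive potassium channel TASK-1 that sets membrane potential in brown adipocytes and vascular smooth muscle, read 6.80, 6.96, 6.86 and 7.05 on the control arrays and 6.81, 6.86, 7.06 and 6.98 on the others (log2). Its difference was 0.01 (SE 0.07; limma adjusted p = 0.99996), and its direction turned to -0.0007 with each array centred on its median and to -0.015 with array weights. Its values covered nearly the same range in both groups, and its row lay between percentiles 47.8 and 51.7.

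Pank1, a pantothenate kinase that starts coenzyme A synthesis, read 8.76, 8.74, 8.74 and 8.70 on the control arrays and 8.61, 8.81, 8.74 and 8.83 on the labelled-null arrays (log2). The 4 controls lay close together (SD 0.02), inside the wider range of the other group (SD 0.10), and the means differed by 0.01 (SE 0.06; limma adjusted p = 0.99996). With each array centred on its median this difference was -0.0019. Slc27a2, a very long chain acyl-CoA synthetase and fatty acid transporter also abundant in liver and kidney, read 5.06, 5.06, 5.22 and 4.76 on the control arrays and 4.83, 5.01, 5.06 and 5.01 on the others (log2). Control arrays 3 and 4 held its highest and lowest value, and the difference was -0.05 (SE 0.10; limma adjusted p = 0.99996). The Slc27a2 row lay between percentiles 18.21 and 24.03, and whether it holds any transcript of its gene was not determined. Like Ucp1, Slc27a2 lay below the 30th percentile on all 8 arrays, while the other 6 genes lay above it on all 8. With only genes above that percentile tested, 18 of 15174 genes (0.119%) passed and 0 of those 6 did.

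Of 21 measured white adipocyte markers, 5 fell past the adjusted threshold in limma (Cd36, Fabp4, Lpl, Aqp7 and Trarg1), 0 rose and 9 had an unadjusted p under 0.05. For 19 of them the difference lay below 0, and for the gluconeogenic enzyme Pck1 (0.05) and the triglyceride enzyme Dgat2 (0.03) above it. The median difference of the list was -0.34, against -0.02 for the 8 brown fat genes and 0.001 over all genes. The fatty acid transporter Cd36 differed by -0.92 (95% confidence interval -1.10 to -0.75; limma adjusted p = 0.00728) and the fatty acid binding protein Fabp4 by -1.13 (-1.41 to -0.85; limma adjusted p = 0.0229). Of the 5 calls, Cd36 alone remained at an adjusted p of 0.01, with a replicate block, and without control array 2, control array 4, labelled-null array 1 or labelled-null array 2, while 2 white adipocyte markers passed without control array 3 or labelled-null array 4. With every row of the table tested on its own, limma called 0 of 35556 (1263 at an unadjusted p under 0.05). The mean of the white adipocyte list ran from 7.57 to 7.80 on the control arrays and from 7.26 to 7.45 on the others (log2), and that of the 8 brown fat genes from 6.95 to 7.02 and from 6.93 to 7.12. In bulk skin, fewer cells of a type and less RNA per cell cannot be told apart. The white adipocyte list was compiled with earlier results of these data known, and the difference between the lists was not tested.

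**Figure D2:**
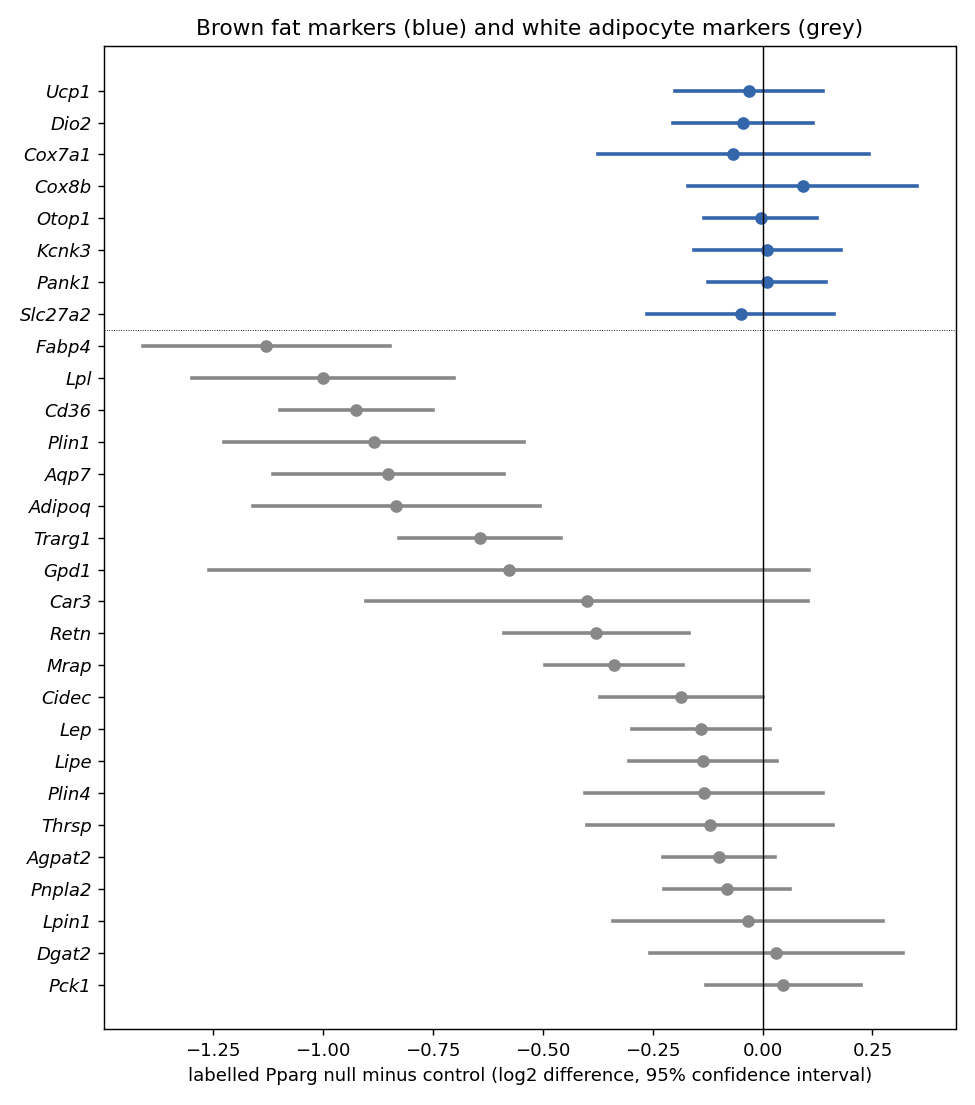
Points are log2 differences, labelled Pparg null minus control, with 95% confidence intervals from limma, for the 8 brown fat markers (blue) and all 21 measured white adipocyte markers (grey). The blue intervals all include 0, while 9 of the 21 grey ones lie below 0 and the others include it.

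Cox8b and Cox7a1, isoforms of striated muscle too, were set beside skeletal muscle markers from array to array. The mean of 36 skeletal muscle markers, such as the muscle actin Acta1 and the creatine kinase Ckm, ran from 9.62 to 9.85 on the control arrays and from 9.54 to 10.03 on the labelled-null arrays (log2), with a difference between the group means of 0.0006. All 36 lay above the 30th percentile on at least 4 arrays, 18 lay above the 90th on every array, and 0 passed the threshold between the groups. Labelled-null array 3, where Cox7a1 and Cox8b were highest, had the highest muscle mean. Labelled-null array 4, where both were lowest, had the lowest muscle mean and the highest keratinocyte mean (12.03 against 11.80 to 11.97 on the other 7 arrays). Between these extremes Cox7a1 did not follow the order of the muscle mean. It was 7.60 on control array 4, where the muscle mean was 9.70, and 7.17 on labelled-null array 1, where that mean was 9.80.

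In a limma fit with group and the muscle mean as terms, Cox8b had a slope of 0.97 per unit of the muscle mean (SE 0.24; 95% confidence interval 0.43 to 1.5; unadjusted p = 0.0026, adjusted p = 0.157) and Cox7a1 a slope of 1.03 (SE 0.33; 0.29 to 1.77; unadjusted p = 0.0118, adjusted p = 0.232). Neither passed the adjusted threshold, which 2 of 19938 genes (0.01%) did. An unadjusted p under 0.05 was reached by 2 of the 8 genes and by 14.1% of all genes. The slope of Cox8b was 0.72 to 1.36 with 1 array left out. That of Cox7a1 was 0.92 to 1.12 except without labelled-null array 3, where it was 0.32. Dio2 had a slope of 0.43 (unadjusted p = 0.0537) and the other 5 genes had slopes between -0.22 and 0.23, with Ucp1 at -0.01. How far muscle in the samples sets the level of these genes was not tested.

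**Figure D3:**
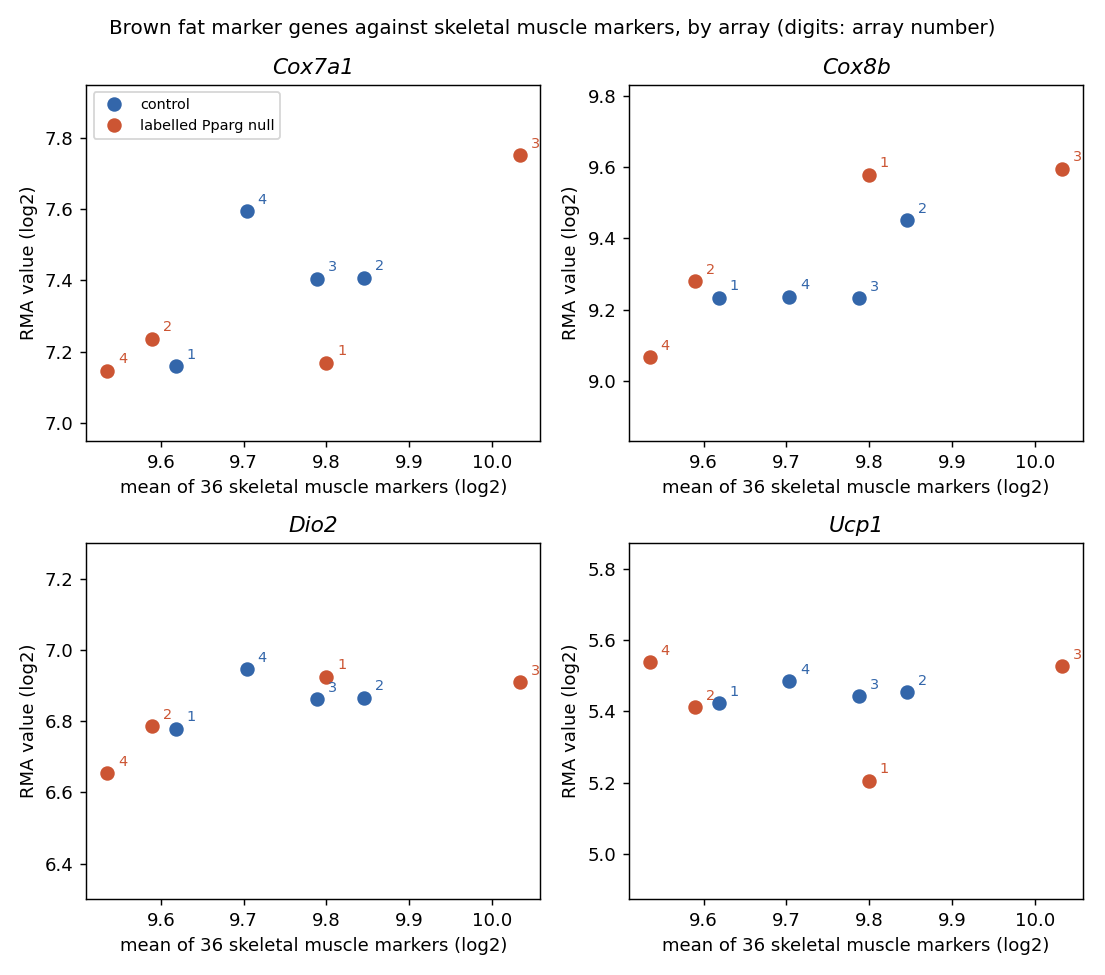
The RMA value (log2) of Cox7a1, Cox8b, Dio2 and Ucp1 is plotted against the mean of 36 skeletal muscle markers (log2), 1 point per array, with digits for the array number. Cox8b and Cox7a1 are highest on labelled-null array 3, where the muscle mean is 10.03, and lowest on labelled-null array 4, where it is 9.54. Between these extremes Cox7a1 does not follow the order of the muscle mean, and Ucp1 is highest on labelled-null array 4.

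Likeness was also described, with no test, by the correlation of deviations from the group means over the 8 arrays. The median r with the 36 muscle markers was 0.83 for Cox8b, 0.72 for Dio2, 0.68 for Cox7a1, 0.28 for Kcnk3, -0.11 for Otop1 and -0.52 for Pank1, against medians between -0.09 and 0.08 with all 15174 genes above the brightness filter. The medians over all genes do not show how many single genes lie as close to muscle. In the limma fit on the muscle mean, 1.64% of all genes had a smaller slope p than Cox8b, 5.1% than Cox7a1 and 14.79% than Dio2. These arrays share the same RNAs and the contrast of arrays 3 and 4 of the labelled-null group. The genes most like each marker were Anxa6 (r = 0.995), Dclk1 and Meg3 for Cox8b, Mrtfa (0.986), A930016O22Rik and Cilp for Cox7a1, and Col4a2 (0.991), Ccnd1 and Pbx2 for Dio2. For Kcnk3 they were Ppp2r5d (0.994), Pex19 and Ubash3b, for Pank1 Appbp2 (0.988), Rbbp9 and Pdcl, and for Otop1 Mirt1 (0.971), Gm10432 and Lratd2. No p is attached, since each value is among the 3 highest of 15174.

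The other listed genes of the brown fat program gave no call in limma. Of 26 other brown and beige fat markers measured, 0 passed the adjusted threshold, 12 lay below and 14 above control, and the median difference was 0.02; 4 listed genes, Adrb3 among them, were not analysed here. The largest differences among them pointed both ways. Elovl3, a fatty acid elongase of brown fat that is also expressed in sebaceous glands and hair follicles, read 5.14, 4.93, 5.35 and 4.90 on the control arrays and 4.75, 4.61, 4.41 and 4.74 on the others (difference -0.45, limma adjusted p = 0.693), between percentiles 14.3 and 25.7 of all rows; it lay below percentile 30 on every array, like Ucp1, and whether the row holds any Elovl3 transcript was not determined. Cidea, a lipid droplet protein of brown adipocytes also found in sebaceous glands, read 6.07, 6.22, 6.02 and 6.08 on the control arrays and 6.34, 6.34, 6.27 and 6.40 on the others (difference 0.24, limma adjusted p = 0.693). The groups did not overlap for either gene, as for 2 of the 26 in all and 2.32% of all genes. Tnfrsf9, a receptor used as a beige fat marker and also carried by activated lymphocytes, differed by 0.46 with overlapping groups (limma adjusted p = 0.99996).

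Regulators of brown fat identity gave no call either. Of 30 measured regulators, 0 passed the adjusted threshold, 20 lay below and 10 above control, and the median difference was -0.02. Prdm16, which commits precursors to the brown fate, differed by -0.06 (95% confidence interval -0.19 to 0.07), the early brown precursor factor Ebf2 by -0.01 (-0.28 to 0.25) and the mitochondrial coactivator Ppargc1a by 0.02 (-0.21 to 0.25). Zfp423, a preadipocyte factor that restrains the thermogenic program, differed by -0.15 (-0.27 to -0.04), with groups that did not overlap. Irf4, a partner of Ppargc1a, differed by -0.15 with overlapping groups (-0.36 to 0.06). Of the 30, 2 had an unadjusted p under 0.05 in limma and 1 had groups that did not overlap. Over all genes these shares were 3.57% and 2.32%, and the intervals are not adjusted for the number of genes. Of 17 measured genes of adrenergic, cAMP and thyroid hormone input, 0 passed. The thyroid hormone transporter Slc16a10 differed by -0.22 (-0.38 to -0.06). The regulatory subunits of protein kinase A Prkar2b and Prkar1a differed by -0.17 (-0.33 to -0.02) and 0.08 (-0.02 to 0.18). Of 13 measured secreted factors of brown fat 0 passed. The axon guidance protein Slit2 lay at -0.15 (-0.26 to -0.04), Fstl1 at -0.08 (-0.20 to 0.04) and Lcn2 at 0.13 (-0.07 to 0.33).

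Subunits of the respiratory chain gave small differences in both directions. Besides Cox7a1 and Cox8b, 15 subunits of cytochrome c oxidase were measured, of which 0 passed the adjusted threshold, and their differences ran from -0.12 to 0.08. The groups did not overlap for 2 of the 15, Cox8a and Cox6c, against 2.32% of all genes. Cox8a and Cox7a2, the isoforms found in most tissues, differed by -0.11 (95% confidence interval -0.22 to -0.0007; limma adjusted p = 0.99996) and -0.08, and Cox4i1 by -0.12. Cox6a2, another striated muscle isoform, differed by 0.0011. Of 28 measured subunits of the other complexes and electron transfer proteins 0 passed, within -0.10 to 0.08, with Sdhb at -0.10, Uqcrc2 at 0.07 and Atp5pb at 0.08. Of 20 measured genes of fatty acid oxidation 0 passed, with the acyl-CoA dehydrogenases Acads and Acadl at -0.15 and -0.18 and Decr1 at -0.14.

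Relatives of the 8 genes were also without a call. Of 7 other carriers measured beside Ucp1, the muscle-enriched Ucp3 differed by -0.02 and the adenine nucleotide carrier Slc25a4 by 0.07, while Slc25a14 differed by -0.12 and Slc25a30 by 0.03. Beside Otop1, the otopetrins Otop2 and Otop3 differed by 0.12 and -0.04. Beside Kcnk3, 0 of 13 potassium channels of its family passed. Kcnk2, which codes for the mechanosensitive channel TREK-1, lay at -0.28 (limma adjusted p = 0.736), with Kcnk16 at 0.16 and Kcnk9 at 0.12. The Kcnk9 row was dim, between percentiles 23.9 and 31.6. Beside Pank1, 0 of 9 genes of coenzyme A metabolism passed: the final enzyme of synthesis Coasy differed by -0.15, Dcakd by -0.13 and Nudt7 by 0.08, and the kinases Pank2, Pank3 and Pank4 by 0.0003, -0.04 and -0.01. Beside Slc27a2, the 5 other members of its family differed by -0.03 (Slc27a1) to 0.10 (Slc27a5), with Slc27a6 at 0.09. The Slc27a5 row was dim, between percentiles 21.7 and 28.35. The groups did not overlap for 1 of the 7 carriers (Slc25a14), 1 of the 13 potassium channels (Kcnk2) and 2 of the 9 coenzyme A genes (Coasy and Dcakd). They overlapped for Otop2, Otop3 and the 5 relatives of Slc27a2. Over all genes, 2.32% had groups that did not overlap. Of 20 measured genes of heat cycles that do not need UCP1 0 passed, with the calcium pump regulator Sln at 0.25, the glycerol phosphate dehydrogenases Gpd2 and Gpd1 at -0.13 and -0.58, and an SE of 0.31 for Gpd1, which the white adipocyte list also holds.

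**Figure D4:**
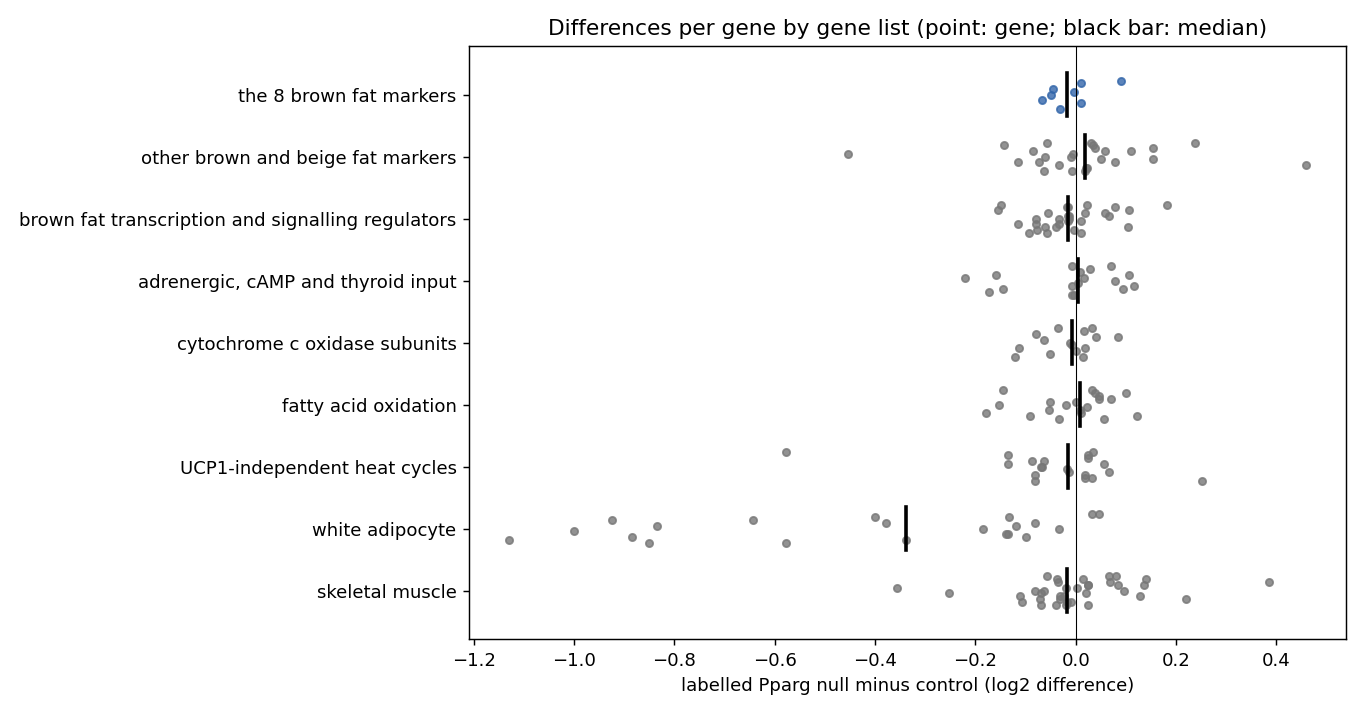
Each point is the log2 difference of 1 gene, labelled Pparg null minus control, by gene list, with the median of the list as a black bar. The 8 brown fat markers lie between -0.07 and 0.09, and the white adipocyte list has a median of -0.34; a gene can stand in several lists.

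Markers of other cell types that skin samples can hold gave 0 calls outside the white adipocyte list. Smooth muscle and pericytes, where Kcnk3 is also expressed, had a median difference of -0.01 over 14 genes, with Lmod1 at 0.18, Cnn1 at -0.12 and Kcnj8 at -0.10, and a list mean of 8.65 to 8.78 on the control arrays and 8.56 to 8.85 on the others (log2). Liver and kidney markers, measured because Slc27a2 is abundant there, had a median of -0.0043 over 10 genes, of which 5 lay above the 30th percentile, with Apoa1 at -0.35, Umod at 0.10 and Alb at -0.22. The medians were 0.0038 over 10 endothelial genes, with Emcn at 0.20, -0.01 over 10 keratinocyte genes, -0.02 over 10 fibroblast genes and 0.17 over 7 erythroid genes, of which Car1 differed by 0.26 (limma adjusted p = 0.334) and Car2 by 0.41. Among muscle markers the slow myosin Myh7 differed by 0.39 and Tnnc1 by 0.22, each with overlapping groups.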

How the data were processed

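RNA of full-thickness skin was labelled with biotin after whole-transcript amplification and hybridised to 1 array per sample, per the labels' protocols. Per the submitters' processing notes, the authors ran RMA in the Affymetrix Expression Console; the deposited values are on the log2 scale, and no version, annotation build or filter is stated. RMA removes background, makes the value distributions of the arrays equal by quantile normalization and combines the probes of a row, which hides any change shared by all transcripts.

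Of 35556 rows, 21789 had 1 gene symbol in the platform annotation, 1621 several and 12146 none. For 21698 rows the symbol was brought up to date by gene ID from a RefSeq table of GRCm38.p6. A gene with several rows is represented by its brightest. Differences, labelled Pparg null minus control, were fitted to all 19938 genes, dim ones included, with limma (version 3.58.1, R 4.3.3; lmFit, eBayes, two-sided, Benjamini-Hochberg, threshold 0.05) and no covariate. A further fit had the skeletal muscle list mean as a term. Both fits were tested on simulated data. The genes named are the 8 members, members of each pathway list past the threshold or with the 3 smallest p, and for the 6 brighter members the 3 genes with the highest r; other genes were chosen after their values were seen. The members and lists were chosen with earlier results of these data known. Arrays were not paired by replicate number in the main fit, and their deviations showed no such pairing. Other filters, scalings, priors, array weights, row rules, a replicate block and leaving out arrays were tried.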

Additional observations from a re-analysis of the deposited data

Results flagged for a closer look

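In 3 of 18 sets of 4 values (the 8 genes and the muscle marker mean, per group), a single array stood far from the other 3. For a single set chance gives about 1 in 20. The 18 sets come from the same 8 arrays and are not independent, so that rate cannot show whether 3 of 18 is more than chance gives. The distance to the nearest array is stated relative to the spread of all 4. Labelled-null array 3 had a Cox7a1 value of 7.75, against 7.15 to 7.24 elsewhere in its group (ratio 0.851); that array also had the highest muscle marker mean, 10.03. Control array 2 had a Cox8b value of 9.45, against 9.23 to 9.24 for the remaining controls (ratio 0.983); its muscle marker mean, 9.85, was the highest of the controls. Labelled-null array 2 had an Otop1 value of 6.23, against 6.31 to 6.32 elsewhere in its group (ratio 0.9), and its muscle marker mean was 9.59.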

How the results depend on the processing

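All 146 differences and 94 slopes of the 8 genes under other settings stayed short of the adjusted threshold (lowest adjusted p 0.996 and 0.0796). Cox8b kept its direction in all 19 of its alternatives; the other 7 differences, all small, turned sign in at least 1. Array 1 of the controls and array 4 of the labelled-null group were also left out as a pair, which was decided after seeing the data. Omitting 1 array or this pair gave differences of -0.079 to 0.041 for Ucp1, -0.0803 to 0.0103 for Dio2, -0.21 to 0.0017 for Cox7a1, 0.019 to 0.2 for Cox8b, -0.044 to 0.025 for Otop1, -0.045 to 0.054 for Kcnk3, -0.018 to 0.057 for Pank1 and -0.14 to 0.016 for Slc27a2. It gave slopes of -0.64 to 0.23 for Ucp1, 0.19 to 0.64 for Dio2, 0.32 to 1.1 for Cox7a1, 0.72 to 1.4 for Cox8b, -0.24 to 0.08 for Otop1, -0.12 to 0.44 for Kcnk3, -0.53 to -0.12 for Pank1 and -0.14 to 0.33 for Slc27a2. The pair alone gave differences of 0.0192 for Otop1, -0.0452 for Kcnk3 and -0.009 for Pank1, and slopes of 0.2338 for Ucp1 and 0.0797 for Otop1. Array weights gave 0.0048 for Otop1 and -0.0151 for Kcnk3, and centring gave -0.0007 for Kcnk3 and -0.0019 for Pank1. The cause of these turns was not tested.

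The 16 genes past the threshold became 2 at an adjusted p of 0.01, 8 without the pair and 3 to 12 with 1 array left out (12 without control array 1, 9 without array 3 and 6 without array 4 of the labelled-null group, at most 5 otherwise). With every row tested on its own limma called 0, with 1263 rows at an unadjusted p under 0.05. Pairing by replicate number was looked for and not seen: deviations of arrays with equal numbers correlated at r = -0.31, 0.20, 0.05 and -0.03. For 0 of the 4 control arrays was the equal number the best match. These 4 correlations cannot show that arrays with equal numbers shared no litter or batch. The litters are not given. The replicate block left 1 gene, changed no call among the 8, and gave Slc27a2 a slope of -0.5948. The slope on the muscle mean passed for 2 genes, against 78 with the 30th percentile filter, 139 with a trended and robust prior, and 0 with the replicate block or without the pair; none of the 8 passed in any of these.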
